A study of Mus musculus with 16 samples.

Results

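The comparison described here sets LPS-treated macrophages of high side scatter, called responders, against untreated macrophages of the same line. It uses 8 of the 16 libraries in the series, 4 of responders and 4 of untreated cells, taken by the sample labels, and it covers every gene with enough counts to be tested. The cells were iBMDM, an immortalised line of bone-marrow-derived mouse macrophages, which the labels call iBMDM MyD88-AGF with the genotype MyD88-AGF WT in every group. What AGF stands for is not given in the sources used here, and nothing in them says whether the line is a clone. Responders had 6 h of lipopolysaccharide (LPS) at 10 ng/mL and were gated for high side scatter, the light that structures inside a cell deflect. Untreated cells had no LPS and passed the sorter with no scatter gate, after the gated cells had been collected. LPS, the gate and the order of collection therefore cannot be told apart in this comparison. Another pair of groups, of 4 libraries each, serves only to show where responders differ: bystanders (the same LPS dose and time, low side scatter) and the LPS pool (the same dose and time, ungated).

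LPS is a glycolipid of the outer membrane of Gram-negative bacteria. CD14 and MD-2 (the product of Ly96) present it to the receptor TLR4. TLR4 recruits the adaptor MyD88, which assembles with IRAK kinases into the myddosome and leads to NF-kappaB and AP-1, and from endosomes it uses the adaptor TRIF to reach IRF3 and type I interferon. Macrophages that receive this signal switch on cytokine, chemokine and interferon-stimulated genes within hours, and are known to reduce proliferation and parts of their resting programme at the same time. The series is titled for the mediators of myddosome assembly.

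Total counts ran from 22457211 to 23898399 in responder libraries and from 16638528 to 20497100 in untreated libraries. Whether replicates were separate cultures is not in the labels, so the p-values reflect the spread of these libraries alone, part or all of which may be technical. In the list of 8 macrophage markers every member had reads in each of the 8 libraries, and the list summed to 4725 to 4737 CPM (counts scaled to a library total of 1000000) in responders and 4415 to 4450 in untreated cells. The neutrophil genes Ly6g, S100a9 and Retnlg and the lymphocyte gene Cd3e had 0 reads in all 8, but other members had some. S100a8, another neutrophil gene, had 17 to 28 reads in responder libraries and 2 to 3 in untreated ones. Camp had 5 to 15 and 1 to 4. Neutrophil markers summed to 1.03 to 1.88 CPM in responders and 0.361 to 0.525 CPM in untreated cells, and dendritic cell markers to 3.85 to 4.81 and 0.584 to 1.08 CPM. Lymphocyte markers summed to 0.257 to 0.502 and 0.481 to 0.732 CPM. Of the dendritic cell markers, Xcr1 had 86 to 100 reads in responder libraries and 8 to 14 in untreated ones, and Zbtb46 1 to 7 and 2 to 9. Neural markers summed to 46.0 to 62.0 CPM in responders and 115 to 140 CPM in untreated cells. Most of these reads were of Mbp, with 693 to 789 reads in responder libraries and 1724 to 2086 in untreated ones. Map2 went the other way, with 147 to 225 and 62 to 149. The reason for these differences was not tested. Responder 1 and untreated 1 stood apart by the neural transcript Gap43, with 32 and 41 reads where the other 6 libraries had 0. Fibroblast markers were higher in replicates 1 and 3 of both groups (22.4 to 35.9 CPM) than in replicates 2 and 4 (7.76 to 9.61 CPM). Without the 6 libraries of the series that held neural transcripts, judged by their Gap43 reads, 4542 genes were higher and 4720 lower in responders. With them the counts were 4598 and 4849. The 44 list medians given below kept their sign without those 6 libraries. The part of the fibroblast, neutrophil and dendritic cell transcripts in the results was not tested.

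Responders and untreated cells differed in most of the genes tested. Of 12589 genes, 4598 (36.5%) were higher in responders and 4849 (38.5%) were lower at an adjusted p under 0.05, 75% in all, by the quasi-likelihood F test of edgeR with Benjamini-Hochberg adjustment. The libraries of the groups did not overlap for 4259 genes (33.8%) that were higher and 4450 (35.3%) that were lower. A lack of overlap, given below for single genes, was thus common and does not set a gene apart. By the scaling described below, the large changes were mostly increases: 1357 genes (10.8%) were at least 2-fold higher and 785 (6.24%) at least 2-fold lower. At least 4-fold the counts were 605 and 95, and at least 16-fold 208 and 5. The genes at least 2-fold higher took 23.96% of responder counts and 6.22% of untreated counts. Those at least 2-fold lower took 0.721% and 2.385%. These shares describe genes chosen by the same contrast and carry no test.

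Levels below are CPM after scaling with TMM factors, a trimmed mean of log ratios that takes the middle of the genes as unmoved. They count reads and are not divided by gene length, so they are compared between samples and not between genes. With TMM, 48.7% of the calls were increases and the median log2 fold over all genes was -0.024. With library totals alone 21.7% were increases (2286 higher and 8238 lower) and the median was -0.407. At least 2-fold, 967 genes were then higher and 1880 lower, the reverse of the order with TMM. Each change is thus read against that middle, and a list median or named gene whose sign turned under library totals is given with both values.

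**Figure D1:**
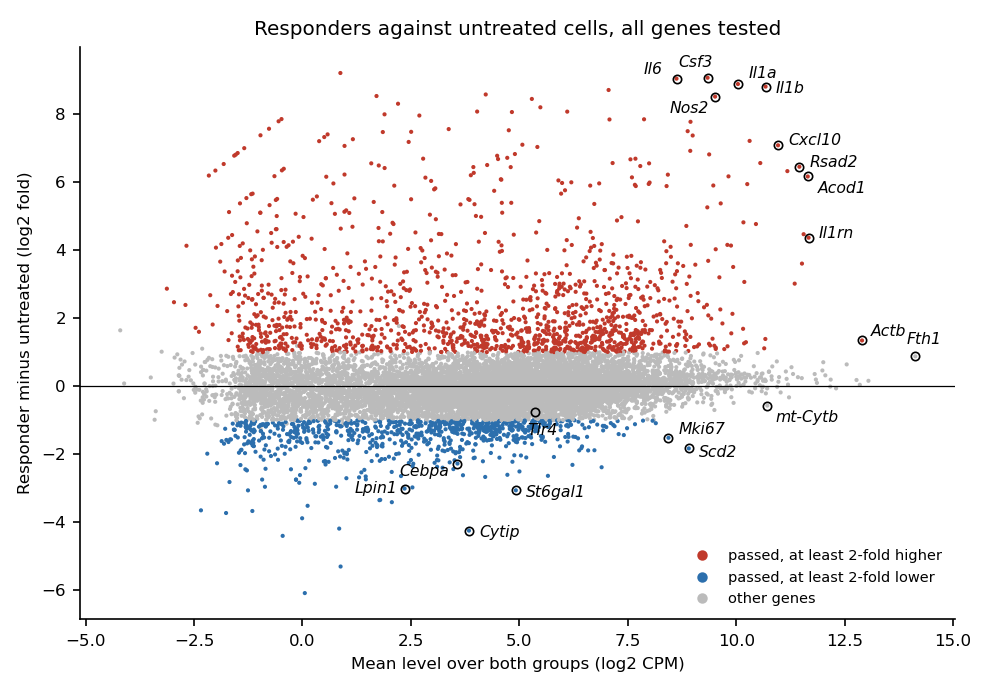
Each point is 1 of the 12589 genes tested, by its mean level over both groups (log2 CPM, horizontal) and its log2 fold, responder minus untreated (vertical), with genes that passed and differed at least 2-fold in red (1357) and blue (785). Among the labelled genes Csf3 lies at a log2 fold of 9.07 and Cytip at -4.25.

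Inflammatory cytokine genes were higher in responders. Il6, whose product drives the acute-phase response, stood at 1.31, 1.40, 1.65 and 1.59 CPM in untreated replicates 1 to 4 and at 759, 799, 802 and 788 CPM in responders. Every responder library was far above every untreated library, a difference of 9.05 ± 0.25 (SE) on the log2 scale (adjusted p = 2.91e-13). Il1b, which encodes the interleukin-1 beta precursor, stood at 6.43, 7.38, 9.05 and 6.43 CPM in untreated cells and at 3177, 3334, 3325 and 3224 CPM in responders (log2 fold 8.81 ± 0.44). Csf3, the granulocyte growth factor gene, had a log2 fold of 9.07 ± 0.38 and Il1a one of 8.89 ± 0.38. The standard errors of these genes come from a fit over all 16 libraries, and bystander libraries varied more than the 8 compared: Il6 stood at 5.90, 6.00, 19.7 and 20.2 CPM in bystanders 1 to 4.

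Tnf, the gene of tumour necrosis factor, was already expressed in untreated cells at 78.2, 79.3, 81.7 and 75.4 CPM and stood at 2224, 2249, 2188 and 2212 CPM in responders, 28.2-fold higher (adjusted p = 9.63e-18). Il1rn, whose product blocks the interleukin-1 receptor, also started from a measurable level, at 294 to 303 CPM, and stood at 6122 to 6246 CPM in responders. Its log2 fold was 4.37 ± 0.02. Il27, a subunit gene of interleukin-27, rose from 0.497 ± 0.079 to 137 ± 1.92 CPM (mean ± SD, n = 4), and Il10, the gene of an anti-inflammatory cytokine, from 0.101 ± 0.084 to 3.81 ± 0.20 CPM. Ifnb1, the interferon-beta gene, stayed low in both groups, with 82 reads over the responder libraries and 2 over the untreated ones. Il1f6, which encodes interleukin-36 alpha, had 3086 and 8.

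Of 30 cytokine and growth factor genes listed, 24 passed the filter on low counts and each of these rose, 21 of them at least 2-fold, beside 36.5% and 10.8% of all genes tested. Their median log2 fold was 4.65. A member that passes the filter only through its high group can hardly fail to differ, here and in the lists below, so such counts describe the list and do not support it. The smallest increase in the list was 0.41. The list and all others were chosen with earlier results of these data known. Counts in each list below stand beside the same shares of all genes tested, 36.5% higher and 38.5% lower. A list near those shares does not stand apart from other genes.

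Chemokine genes rose as a group too. Of 20 listed, 17 were tested and each rose at least 2-fold, with a median log2 fold of 5.48. Cxcl10, a chemokine gene that attracts activated T cells, stood at 28.2, 30.2, 30.6 and 27.9 CPM in untreated cells and at 3853, 4049, 3978 and 3983 CPM in responders. The groups did not overlap, and the fold was 136 (adjusted p = 1.16e-87). Ccl5, another attractant of T cells and monocytes, rose 181-fold from 5.18 ± 0.45 to 937 ± 35.2 CPM. Ccl2, the main monocyte attractant, had a high untreated level of 444 ± 6.92 CPM and rose 12.2-fold. Ccl3 rose from 259 ± 5.71 to 5754 ± 164 CPM and Ccl9 from 573 ± 17.0 to 4639 ± 79.2 CPM. Chemokine genes with almost no untreated reads were Cxcl3, with 540 reads over the responder libraries and 1 over the untreated ones, and Ccl17, at 32.5 ± 1.00 and 0.112 ± 0.041 CPM. Cxcl11 stood at 56.6 ± 2.45 and 0.211 ± 0.11 CPM, although RefSeq classes it as a transcribed pseudogene.

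The promoters of Il6 and Cxcl10 are shown because both genes were among the largest increases and each has a match to the kappaB motif, the DNA pattern that NF-kappaB dimers bind. The sequences come from RefSeq on GRCm38.p6, run 5′ to 3′ on the gene's strand from 250 bases before to 50 bases after the start, and carry the matches in capitals. The motif was searched on both strands as GGG, 2 bases of any kind and TTTCC, or as GGG, 3 bases of any kind and TTCC, and these patterns overlap each other.
Il6, chr5:30012864-30013163, plus strand: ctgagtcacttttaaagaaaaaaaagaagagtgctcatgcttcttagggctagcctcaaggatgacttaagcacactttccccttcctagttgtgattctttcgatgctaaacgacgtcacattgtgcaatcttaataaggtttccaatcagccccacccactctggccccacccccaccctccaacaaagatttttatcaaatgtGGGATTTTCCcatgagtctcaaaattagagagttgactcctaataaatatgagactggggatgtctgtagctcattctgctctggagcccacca
Cxcl10, chr5:92348840-92349139, minus strand: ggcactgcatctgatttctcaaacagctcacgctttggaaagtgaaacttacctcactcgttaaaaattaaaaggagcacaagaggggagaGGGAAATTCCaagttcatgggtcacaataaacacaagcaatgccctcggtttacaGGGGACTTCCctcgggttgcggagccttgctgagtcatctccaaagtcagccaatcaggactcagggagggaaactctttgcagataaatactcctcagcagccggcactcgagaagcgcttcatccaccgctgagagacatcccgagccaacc
Il6 held 1 match and Cxcl10 held 2. A match describes the letters and does not show that a factor binds there.

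Interferon-stimulated genes with antiviral products rose throughout the list. Of 48 listed, 47 were tested and each rose at least 2-fold, with a median log2 fold of 3.73 and a range of 1.01 to 7.85. Rsad2, which encodes viperin, stood at 65.1, 62.1, 70.5 and 56.3 CPM in untreated cells and at 5402, 5574, 5646 and 5594 CPM in responders, 87.7-fold higher (adjusted p = 1.72e-22). Cmpk2, a mitochondrial nucleotide kinase gene, rose 6.33 ± 0.03 on the log2 scale. Ifit1, whose product binds foreign RNA, rose 59.9-fold from 23.4 ± 2.52 to 1396 ± 40.1 CPM. Ifi205 rose from 1.16 ± 0.21 to 269 ± 21.8 CPM and Ifi44 from 0.406 ± 0.30 to 37.9 ± 1.41 CPM. Ifi205 is one of a family of similar genes, so its reads may be shared with them.

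Guanylate-binding proteins and immunity-related GTPases, which coat the vacuoles of intracellular microbes, rose with them. Of 18 listed, 17 were tested and each rose at least 2-fold, with a median log2 fold of 5.10, or 4.91 with Gbp10, which had no untreated read, set at a floor of 3 counts over the group. Gbp5 stood at 1.86, 1.98, 2.37 and 1.92 CPM in untreated cells and at 462, 459, 477 and 472 CPM in responders, 231-fold higher (adjusted p = 5.48e-74). Gbp2 rose 121-fold from 8.10 ± 1.32 to 974 ± 12.4 CPM, Gbp3 from 5.35 ± 0.70 to 503 ± 10.6 CPM and Gbp6 from 0.481 ± 0.11 to 66.7 ± 3.85 CPM. The untreated libraries held few reads of these genes and the responder libraries many.

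Promoters of Ifit1 and Gbp2 are printed beside them because each has a match to the interferon response motif, GAAA, 2 bases of any kind and GAAA on either strand, in the same window and build as above. Capitals mark the matches, which here read as their reverse complement.
Ifit1, chr19:34640639-34640938, plus strand: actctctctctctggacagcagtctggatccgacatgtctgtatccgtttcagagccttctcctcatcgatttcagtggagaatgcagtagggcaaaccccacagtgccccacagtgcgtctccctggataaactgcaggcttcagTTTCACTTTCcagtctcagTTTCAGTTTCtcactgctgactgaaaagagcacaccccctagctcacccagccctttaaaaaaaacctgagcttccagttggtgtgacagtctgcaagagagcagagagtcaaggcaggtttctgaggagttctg
Gbp2, chr3:142620413-142620712, plus strand: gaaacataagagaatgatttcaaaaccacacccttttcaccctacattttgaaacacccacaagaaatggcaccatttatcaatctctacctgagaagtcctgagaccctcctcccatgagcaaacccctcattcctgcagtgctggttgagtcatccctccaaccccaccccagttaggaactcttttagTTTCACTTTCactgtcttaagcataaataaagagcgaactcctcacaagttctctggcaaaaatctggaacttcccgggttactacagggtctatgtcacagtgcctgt
Ifit1 held 2 matches and Gbp2 held 1.

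NF-kappaB subunits and the feedback genes that NF-kappaB induces were higher for 29 of 30 tested, 24 of them at least 2-fold, with a median log2 fold of 1.93. Nfkbia, which encodes the inhibitor IkappaB-alpha, stood at 53.5, 52.2, 51.2 and 50.7 CPM in untreated cells and at 552, 568, 553 and 550 CPM in responders, 10.7-fold higher (adjusted p = 8.38e-31). Socs3, a suppressor of cytokine receptor signalling, rose 94.6-fold from 2.97 ± 0.42 to 281 ± 7.34 CPM. Traf1, a signalling adaptor gene, rose 28.8-fold and Nfkbiz, the gene of a nuclear IkappaB protein, by 4.08 ± 0.04 on the log2 scale. Cish, another suppressor gene of cytokine signalling, rose from 0.289 ± 0.064 to 8.15 ± 0.38 CPM. Cyld, which encodes a deubiquitinase that restrains NF-kappaB, was the exception at 36.7 ± 1.79 and 30.7 ± 1.12 CPM (log2 fold -0.26, adjusted p = 1.76e-06).

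The genes of LPS recognition itself divided. Tlr4, the receptor gene, fell: it stood at 52.4, 50.5, 52.9 and 51.6 CPM in untreated cells and at 29.4, 30.7, 32.1 and 30.7 CPM in responders, with a log2 fold of -0.75 ± 0.04 (adjusted p = 5.50e-25) and no overlap. Its co-receptor genes rose. Cd14 went from 168, 170, 166 and 164 CPM to 771, 766, 774 and 781 CPM, 4.62-fold higher, and Ly96 from 2.86 ± 0.22 to 6.16 ± 1.19 CPM. Among myddosome components, Myd88 stood at 111, 112, 109 and 113 CPM in untreated cells and at 217, 212, 211 and 202 CPM in responders (log2 fold 0.92 ± 0.03). The kinase genes Irak4 and Irak1 fell by 0.27 and 0.32 on the log2 scale. Irak2, the kinase gene of later signalling, rose 4.73-fold to 189 ± 3.79 CPM. Irak3, which encodes the inhibitory family member IRAK-M, rose 6.71-fold from 12.6 ± 0.43 to 84.4 ± 2.91 CPM.

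Further along the pathway, Ikbke, an IkappaB kinase gene of the interferon branch, rose from 52.2 ± 1.38 to 315 ± 2.26 CPM and Peli1, a ubiquitin ligase gene, from 23.6 ± 1.06 to 118 ± 2.92 CPM. Map3k7, the gene of the kinase TAK1, its partner gene Tab1 and Traf3, an adaptor gene of the interferon branch, fell by 0.44, 0.37 and 0.40. Of 32 pathway genes listed, 29 were tested: 20 rose, 9 of them at least 2-fold, and 6 fell. The remaining 3 missed the threshold, and the median was 0.28, which turned to -0.10 with library totals alone (11 higher and 15 lower). In the list of other Toll-like receptors, 9 of 10 tested rose. Tlr5, the flagellin receptor gene, was the 1 that fell, from 2.73 ± 0.095 to 0.629 ± 0.092 CPM, and is named after its values were seen. Tlr3, the receptor gene for double-stranded RNA, rose 17.5-fold from 11.5 ± 1.08 to 200.2 ± 3.09 CPM, Tlr2 from 88.5 ± 4.30 to 251 ± 6.07 CPM and Tlr8 by 2.36 on the log2 scale.

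Antigen presentation genes were higher at the class I side. Of 23 class I and immunoproteasome genes, 21 rose, each at least 2-fold, and 2 fell, with a median log2 fold of 2.28. Tap1, a peptide transporter gene, stood at 23.9, 26.4, 26.0 and 24.2 CPM in untreated cells and at 361, 360, 347 and 364 CPM in responders, 14.3-fold higher. The immunoproteasome subunit gene Psmb9 rose by 3.33 and the non-classical class I gene H2-T22 by 3.48 on the log2 scale, although related class I genes may share reads. Calr, a chaperone gene of the endoplasmic reticulum, was a member that fell, by 0.22 on the log2 scale. Of 8 class II genes listed only 4 passed the filter, of which 3 rose by less than 2-fold, among them Cd74, the invariant chain gene, from 245 ± 4.32 to 444 ± 7.71 CPM and Ctss, the gene of the protease that trims it, from 297 ± 2.37 to 496 ± 1.80 CPM.

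Costimulatory and checkpoint genes rose for 15 and fell for 2 of 17 tested, with a median log2 fold of 2.199. Cd40, a costimulatory receptor gene, stood at 3.26, 4.68, 3.09 and 3.55 CPM in untreated cells and at 379, 373, 371 and 373 CPM in responders, 102-fold higher (adjusted p = 6.63e-33). Cd69, an early activation marker, rose from 0.520 ± 0.23 to 59.1 ± 2.99 CPM. Cd274, which encodes the inhibitory ligand PD-L1, rose by 4.36 ± 0.04 and Slamf7 by 5.76 ± 0.06 on the log2 scale. Vsir, the gene of the checkpoint protein VISTA, fell from 53.5 ± 1.23 to 26.2 ± 1.54 CPM, with no overlap between libraries.

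Effector and acute-phase genes, tested for 26 of 30 listed, rose for 25, each at least 2-fold. The other missed the threshold, and the median log2 fold was 4.26. Nos2, which encodes inducible nitric oxide synthase, stood at 4.30, 3.55, 4.68 and 3.46 CPM in untreated cells and at 1466, 1424, 1457 and 1482 CPM in responders (log2 fold 8.52 ± 0.26). Acod1, whose enzyme makes itaconate from an intermediate of the citric acid cycle, rose 71.9-fold from 88.1 ± 2.79 to 6335 ± 70.2 CPM. Lcn2, the gene of an iron-scavenging lipocalin, rose from 0.638 ± 0.27 to 266 ± 1.78 CPM and Serpina3f, a protease inhibitor gene, from 0.217 ± 0.091 to 77.9 ± 2.49 CPM. Serpinb2 had 761 reads over the responder libraries and 2 over the untreated ones. Outside the lists, Slfn1, a Schlafen family gene, rose from 0.303 ± 0.12 to 89.2 ± 1.29 CPM, and Urah had 613 reads against 2.

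Inflammasome and lytic cell death genes rose for 15 and fell for 2 of 18, with a median log2 fold of 1.15. Casp4, the caspase gene for intracellular LPS, rose by 4.00 ± 0.05 on the log2 scale. Nlrp3, the sensor gene, rose 5.83-fold from 68.3 ± 2.89 to 398 ± 5.34 CPM, and Mlkl, the necroptosis effector gene, rose from 40.1 ± 1.02 to 252 ± 2.32 CPM. Against these, Nlrp1b, a sensor gene of another inflammasome, fell 4.21-fold from 6.44 ± 1.12 to 1.53 ± 0.33 CPM, and Ripk1 fell by 0.21. Immediate-early and AP-1 genes rose for 20 of 26, fell for 1 and missed the threshold for 5. Their median was 0.76. Batf2 rose by 6.45 ± 0.13, Myc, the growth regulator gene, from 0.760 ± 0.23 to 14.9 ± 1.68 CPM and Atf3 by 2.74 on the log2 scale, while Fos fell from 13.6 ± 0.85 to 9.73 ± 0.44 CPM.

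**Figure D2:**
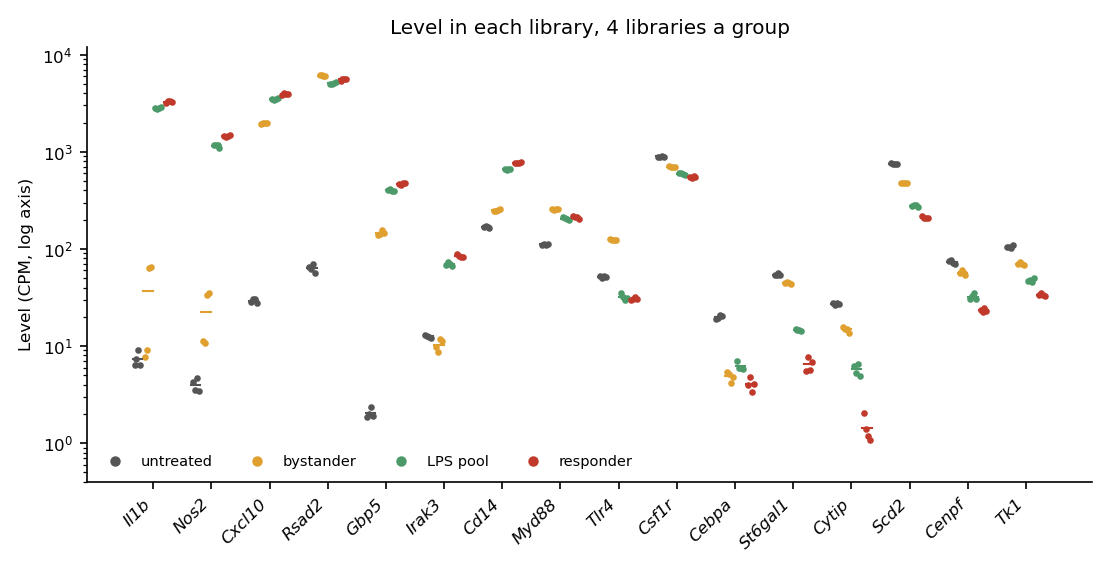
Each point is the level of a gene in 1 library (CPM, log axis), 4 libraries a group, with a bar at the group mean, for 16 genes from the largest increases on the left to decreases on the right. In these 16 genes the responder and untreated points do not overlap, as for Cytip at 1.07 to 2.05 and 26.7 to 27.55 CPM. Of all genes tested, 33.8% were higher and 35.3% lower with no overlap.

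The largest decreases were smaller in fold than the largest increases. Cytip, which encodes a scaffold protein that regulates integrin adhesion, had the largest fall among genes of at least 5 CPM: it stood at 27.55, 26.7, 27.5 and 27.01 CPM in untreated cells and at 2.05, 1.38, 1.20 and 1.07 CPM in responders. That was 19.0-fold lower (log2 fold -4.25 ± 0.11, adjusted p = 2.48e-42). St6gal1, a sialyltransferase gene, went from 53.3, 53.3, 55.9 and 53.6 CPM to 5.57, 7.70, 5.72 and 6.86 CPM, 8.35-fold lower. Lpin1, which encodes a phosphatidate phosphatase of lipid synthesis, fell 8.06-fold from 9.10 ± 0.82 to 1.12 ± 0.22 CPM.

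Lower still in level, and chosen after their values were seen, were the other 4 genes that fell at least 16-fold. Slco2b1, an organic anion transporter gene, had 180 reads over the untreated libraries and 2 over the responder ones. Cxcr4, the receptor gene for CXCL12, had 311 and 7 (3.59 ± 0.71 and 0.0852 ± 0.073 CPM, log2 fold -5.30 ± 0.39), Cd244a, an immune receptor gene, 298 and 15, and Gm5086, a predicted gene, 123 and 5. Their levels rest on few reads, and the untreated libraries hold nearly all of them.

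Low in both groups but separated were Cyp2s1, a cytochrome P450 gene, at 7.63 ± 0.38 and 0.706 ± 0.35 CPM, Dgkg, a diacylglycerol kinase gene, at 6.24 ± 0.36 and 0.605 ± 0.13 CPM, and Pald1 at 6.31 ± 0.64 and 0.617 ± 0.055 CPM. Tmem158 fell 6.22-fold, Ankle1, a nuclease gene, from 54.5 ± 1.30 to 9.57 ± 0.17 CPM and Dmpk, a kinase gene, from 32.0 ± 1.31 to 5.04 ± 0.41 CPM. Asb4 and Angptl4, the gene of an inhibitor of lipoprotein lipase, fell by 2.61 and 2.62 on the log2 scale, Nanos1 by 2.64 and Tns1, a focal adhesion gene, by 2.52. H2ac24 fell by 2.44, but this histone gene has near-identical copies and its reads are uncertain.

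Genes of mitosis fell as a group. Each of the 32 G2/M and mitosis genes listed was tested and lower in responders, 15 at least 2-fold, beside 38.5% and 6.24% of all genes tested. Their median log2 fold was -0.99, with a range of -1.63 to -0.45, and -1.37 with library totals alone. Cenpf, a kinetochore gene, stood at 74.8, 76.0, 72.3 and 69.4 CPM in untreated cells and at 23.7, 22.5, 24.8 and 23.2 CPM in responders, 3.10-fold lower (adjusted p = 3.96e-40). Mki67, the proliferation marker Ki-67, went from 531, 497, 504 and 523 CPM to 178, 178, 182 and 180 CPM, and Kif11, a spindle motor gene, from 98.3 ± 1.67 to 34.9 ± 1.91 CPM. Kif20b, a kinesin gene of cell division, fell by 1.52 on the log2 scale. No untreated library of these genes reached down to a responder library, which also held for 35.3% of all genes tested.

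Promoters of Cenpf and Kif11 are shown as examples of the mitotic genes that fell, for their matches to the CCAAT box, bound by the factor NF-Y, and to the cell cycle homology motif TTTGAA, both searched on either strand. Capitals mark the matches.
Cenpf, chr1:189688037-189688336, minus strand: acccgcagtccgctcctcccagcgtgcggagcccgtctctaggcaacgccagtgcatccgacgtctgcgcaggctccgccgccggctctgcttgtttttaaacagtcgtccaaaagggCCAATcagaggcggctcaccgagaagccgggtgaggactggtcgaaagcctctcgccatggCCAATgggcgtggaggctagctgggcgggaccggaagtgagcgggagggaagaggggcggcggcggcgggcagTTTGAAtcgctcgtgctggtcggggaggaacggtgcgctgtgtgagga
Kif11, chr19:37376132-37376431, plus strand: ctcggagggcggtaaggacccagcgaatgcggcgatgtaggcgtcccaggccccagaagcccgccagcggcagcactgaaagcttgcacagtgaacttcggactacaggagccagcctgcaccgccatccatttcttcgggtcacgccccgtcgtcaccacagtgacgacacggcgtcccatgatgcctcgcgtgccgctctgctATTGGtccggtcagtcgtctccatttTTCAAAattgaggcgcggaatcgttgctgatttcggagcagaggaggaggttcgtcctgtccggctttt
Cenpf held 3 matches and Kif11 held 2.

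Genes of the G1/S transition and DNA replication mostly fell, 33 of 41, while 8 rose, with a median log2 fold of -0.63. Tk1, the thymidine kinase gene of S phase, stood at 104, 104, 101 and 109 CPM in untreated cells and at 33.7, 35.5, 33.6 and 32.6 CPM in responders, 3.09-fold lower, and E2f8 fell by 1.52 on the log2 scale. Pcna, the replication clamp gene, went from 516 ± 7.74 to 359 ± 2.67 CPM. The members that rose most were cyclin and kinase genes of the G1 phase: Ccnd3 from 112 ± 2.64 to 224 ± 3.90 CPM, Ccnd1 from 511 ± 9.91 to 923 ± 6.55 CPM and Cdk6 from 24.3 ± 0.84 to 44.8 ± 1.21 CPM. Mcm10, a replication initiation gene, rose by 0.68.

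Homologous recombination and Fanconi repair genes fell for 22 of 26, with a median log2 fold of -0.64, and 2 rose. Brca2 fell from 23.1 ± 1.34 to 8.96 ± 0.72 CPM, Brca1 from 46.9 ± 1.47 to 20.4 ± 0.47 CPM and Exo1, an exonuclease gene of repair, from 38.4 ± 2.33 to 17.9 ± 0.78 CPM. Of 23 replication-dependent histone genes listed only 10 passed the filter, 4 higher and 2 lower, and their median of 0.40 turned negative without the filter (-0.20) and with at least 1 CPM in 4 libraries (-0.003). Histone genes have near-identical copies, and their transcripts lack poly(A) tails.

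Ribosome biogenesis genes fell for 25 and rose for 3 of 32, with a median log2 fold of -0.22. Utp20 and Rrp1b, which process ribosomal RNA, fell by 0.84 and 0.78, and Ncl, which encodes nucleolin, went from 2214 ± 24.5 to 1950 ± 42.5 CPM. Ptma, the prothymosin alpha gene, was another of the 10 largest losses of CPM, from 1765 ± 29.2 to 1524 ± 7.45 CPM. Cytosolic ribosomal protein genes moved the other way by TMM, each of 36 higher by a median of 0.27 (Rpl24 by 0.44), but with library totals alone their median was -0.12, with 1 higher and 26 lower. Their direction thus depends on the scaling.

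Transcription factor genes of myeloid identity rose for 19, fell for 10 and did not pass for 7 of 36 tested. Within the CCAAT/enhancer-binding family the members parted. Cebpa, a factor gene of resting and immature myeloid cells, stood at 18.8, 19.3, 20.8 and 20.2 CPM in untreated cells and at 3.95, 4.84, 3.38 and 4.11 CPM in responders, 4.84-fold lower (adjusted p = 6.64e-31). Cebpb, a factor gene of inflammatory activation, went from 65.7, 81.8, 89.5 and 69.1 CPM to 332, 406, 361 and 306 CPM, and Cebpd from 15.8 ± 1.00 to 98.1 ± 3.52 CPM. Cebpb varied between libraries of both groups but the groups did not overlap.

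Other factor genes that fell were Etv5 by 1.55, Tfeb, a regulator of lysosome genes, by 1.22 and Mef2c by 1.14 on the log2 scale. Spi1, which encodes the macrophage master factor PU.1, rose from 276 ± 3.76 to 474 ± 7.08 CPM, Maf by 2.81 and Zeb1 from 0.449 ± 0.19 to 6.49 ± 0.94 CPM. The median of the list was 0.15 and turned to -0.23 with library totals alone.

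Surface receptors of the resting macrophage rose for 19 and fell for 8 of 28, with a median log2 fold of 0.72. Among those that fell, Csf1r, the receptor gene for the growth factor M-CSF, stood at 890, 884, 911 and 893 CPM in untreated cells and at 554, 542, 557 and 548 CPM in responders (log2 fold -0.70 ± 0.02). Trem2, a lipid-sensing receptor gene, fell 2.65-fold from 227 ± 6.16 to 85.6 ± 1.82 CPM, Treml1 7.87-fold from 10.3 ± 0.69 to 1.30 ± 0.24 CPM and Clec10a, a lectin gene, from 96.4 ± 1.55 to 47.3 ± 2.42 CPM. Fcgr1, the high-affinity IgG receptor gene, rose 10.1-fold from 55.6 ± 1.62 to 561 ± 9.87 CPM, Fcgr2b, the inhibitory one, by 2.85 and Csf3r, the receptor gene for the product of Csf3, from 1.56 ± 0.18 to 15.7 ± 0.85 CPM. Laptm5, a lysosomal membrane gene of blood cells, fell from 817 ± 12.3 to 558 ± 13.2 CPM.

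Receptors for debris and dying cells fell for 12 and rose for 5 of 19 tested, with a median log2 fold of -0.13. Itgb5, an integrin subunit gene, fell from 71.0 ± 1.54 to 33.2 ± 0.91 CPM, Gas6, which encodes a bridge between dying cells and their receptors, from 9.73 ± 0.69 to 4.58 ± 0.34 CPM and Dock1, an engulfment gene, from 24.6 ± 1.54 to 14.4 ± 0.83 CPM. Msr1, the class A scavenger receptor gene, rose 7.36-fold from 69.5 ± 1.58 to 513 ± 6.68 CPM, and Stab1, another scavenger receptor gene, by 1.00. Named after their values were seen, Axl and Mrc1, receptor genes for dying cells and for mannose, rose from 0.318 ± 0.10 to 3.15 ± 0.41 and from 1.23 ± 0.38 to 4.24 ± 0.54 CPM.

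Chemoattractant and purinergic receptor genes rose for 18 and fell for 4 of 26, with a median log2 fold of 1.02. Ccrl2, a chemerin-binding receptor gene, rose by 6.00 and Adora2b, an adenosine receptor gene, by 5.01, and Fpr2, a formyl peptide receptor gene, had 1068 reads over the responder libraries and 4 over the untreated ones. Gpr183, the receptor gene for an oxysterol attractant, fell from 46.4, 49.5, 46.3 and 46.4 CPM to 10.4, 11.2, 8.96 and 9.89 CPM, 4.67-fold lower, and C5ar2 fell by 1.12. P2rx7, the ATP-gated channel gene, fell from 21.5 ± 1.05 to 12.8 ± 0.70 CPM, and Cxcr4, given above, was the other member that fell. Of 21 regulators of G-protein signalling, 14 rose and 6 fell (median 0.16, and -0.22 with library totals alone). Arrb1, which encodes beta-arrestin 1, fell from 134, 130, 123 and 136 CPM to 35.8, 34.7, 35.7 and 35.6 CPM, and Grk6, a receptor kinase gene, fell by 0.91 on the log2 scale.

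Several genes of fatty acid synthesis and uptake fell. Scd2, a stearoyl-CoA desaturase gene, had the largest loss of reads per library among genes not encoded in mitochondria: it stood at 765, 741, 749 and 742 CPM in untreated cells and at 217, 207, 209 and 210 CPM in responders, 3.55-fold lower (adjusted p = 7.91e-62). Its relative Scd1 fell from 127 ± 5.57 to 54.2 ± 2.03 CPM and Fasn, the fatty acid synthase gene, from 360 ± 8.98 to 178 ± 9.71 CPM. Lpl, the lipoprotein lipase gene, fell from 820 ± 11.1 to 575 ± 12.5 CPM. In the list of oxysterol, efflux and fatty acid synthesis genes, 9 fell and 5 rose of 16, with a median log2 fold of -0.29. Cyp27a1, which makes an oxysterol, fell by 1.06 and Npc2, a cholesterol transfer gene of lysosomes, rose by 1.25.

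Of 23 cholesterol synthesis genes tested, 9 fell and 6 rose, while with library totals alone 20 fell and 1 rose (median -0.064, and -0.45 with library totals). Dhcr7 and Stard4, genes of sterol synthesis and transport, fell by 0.89 and 0.80. Hmgcs1, an early enzyme gene of the pathway, stood at 66.8 to 74.7 CPM in untreated cells and 70.7 to 74.6 CPM in responders and missed the threshold (log2 fold 0.055 ± 0.034, adjusted p = 0.140, and -0.33 with library totals alone). Fatty acid oxidation and peroxisome genes fell for 13 and rose for 8 of 25, beside 38.5% and 36.5% of all genes tested. With library totals alone 22 fell and 2 rose. Acadm, a medium-chain dehydrogenase gene, went from 70.9 ± 2.50 to 35.1 ± 1.31 CPM.

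Mitochondrially encoded genes took a smaller share of counts in responders. The share was 1.44 ± 0.026% in responders and 1.97 ± 0.0093% in untreated cells (SD, n = 4), a difference of -0.532 percentage points with no overlap, and the exact permutation test gave p = 0.0286 (two-sided), the smallest that 70 splits of 4 against 4 allow. With library totals alone, the scale of this share, the median log2 fold was -0.532 over the 13 genes and -0.407 over all genes tested. The middle of all genes thus fell on that scale too. With TMM factors, which scale the 2 groups differently from library totals, 8 of the 13 genes fell and 2 rose, and the median log2 fold was -0.15. The cytochrome b gene mt-Cytb went from 2006, 1991, 2009 and 2037 CPM to 1314, 1370, 1398 and 1333 CPM, and mt-Nd2 and mt-Nd1, subunit genes of complex I, fell by 0.49 and 0.33. The complex IV gene mt-Co1 rose by 0.16 with TMM and had a log2 fold of -0.225 with library totals alone.

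Of 34 nuclear oxidative phosphorylation genes tested, 24 rose and 4 fell by small amounts (Ndufs1, a complex I gene, by 0.33), with a median of 0.10 that was -0.29 with library totals alone (0 higher and 30 lower). Mitochondrial ribosomal protein genes rose for 11 and fell for 10 of 30 (median 0.016), while with library totals alone 2 rose and 26 fell (median -0.37). Citric acid cycle genes fell for 12 and rose for 7 of 23, or for 22 and 0 with library totals alone, with Idh1, the cytosolic isocitrate dehydrogenase gene, falling by 0.72 and Dld, a shared subunit gene of the dehydrogenase complexes, rising by 0.39 on the log2 scale, or by 0.006 and not past the threshold with library totals alone.

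Glycolysis and hypoxia genes rose for 21 and fell for 6 of 28, with a median of 0.21 that turned to -0.17 with library totals alone. The largest rises in the list were those of Pfkfb3, whose product activates glycolysis, from 44.4 ± 1.61 to 132 ± 3.71 CPM, and of Hif1a, the hypoxia factor gene, from 102 ± 0.90 to 268 ± 6.17 CPM. Pdk1, which encodes a kinase that inhibits pyruvate oxidation, and Egln3, an oxygen sensor gene, each fell by 0.81. Amino acid and glucose transporter genes rose for 9 and fell for 6 of 20 (median 0.044, and -0.34 with library totals alone). Slc15a3, a peptide transporter gene of endosomes, rose by 3.51 and Slc2a6 by 2.64, while Slc38a2, a glutamine transporter gene, went from 278 ± 3.84 to 128 ± 3.91 CPM and Slc43a2, a transporter gene of large neutral amino acids, from 111 ± 2.90 to 53.8 ± 1.28 CPM.

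Stress response genes were mixed. NRF2 targets and redox genes rose for 16 and fell for 4 of 25, with a median log2 fold of 0.40. With library totals alone 11 rose and 10 fell, with a median of 0.015. Hmox1, the heme oxygenase gene, went from 275, 280, 271 and 280 CPM to 1079, 1086, 1113 and 1109 CPM, and Prdx5, a peroxiredoxin gene, rose by 1.89. Gclc, which encodes the limiting enzyme of glutathione synthesis, fell from 58.6, 55.3, 58.1 and 57.4 CPM to 23.3, 27.8, 27.2 and 25.1 CPM, and Osgin1 fell by 0.79. Fth1, the ferritin heavy chain gene, had the largest gain of reads per library, from 12619 ± 105 to 23200 ± 378 CPM, although copies of it elsewhere in the genome make its reads uncertain. Heat shock genes rose for 20 and fell for 3 of 25, among them Hsf1, the heat shock factor gene, by 0.30 (median 0.33, and -0.053 with library totals alone), and Hspa1b, near-identical to Hspa1a, rose from 3.90 ± 0.72 to 28.7 ± 0.83 CPM.

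Genes of the unfolded protein and integrated stress responses rose for 8 and fell for 8 of 25 tested, while with library totals alone 6 rose and 18 fell. Atf4, a transcription factor gene of the integrated stress response, rose from 146 ± 3.57 to 271 ± 3.04 CPM and Chac1 by 1.12, while Dnajc3 and Sel1l, genes of the folding and degradation machinery, fell by 0.67 and 0.60. Aminoacyl-tRNA synthetase genes rose for 14 and fell for 4 of 20 by a median of 0.20, which turned to -0.18 with library totals alone.

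Lysosome and vacuolar ATPase genes rose for 15, fell for 10 and did not pass for 7 of 32 (median 0.045, and -0.34 with library totals alone). Sgsh, a sulfatase gene, fell 5.27-fold from 15.8 ± 0.55 to 2.99 ± 0.37 CPM and Atp6v0d2, a subunit gene of the proton pump, from 73.3 ± 1.65 to 36.8 ± 1.94 CPM. Ctsc, a cathepsin gene, and Lamp2, a membrane protein gene, rose by 1.65 and 1.45. In the autophagy list 15 rose and 10 fell of 27 (median 0.18, and -0.20 with library totals alone), with Ulk1, the initiating kinase gene, going from 12.6 ± 0.56 to 5.17 ± 0.60 CPM.

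Regulators of other signals changed singly. Of 16 clock genes tested, 6 rose and 7 fell (median 0.007, and -0.38 with library totals alone): the output factor genes Dbp and Tef fell by 1.47 and 1.32 on the log2 scale, while Per1, a repressor gene of the clock, rose by 1.04 and Nr1d1, which encodes REV-ERB alpha, by 1.45. Nuclear receptor genes rose for 10 and fell for 5 of 17, while with library totals alone 7 rose and 7 fell (median 0.43, and 0.045 with library totals). Pparg, a lipid-sensing receptor gene, went from 42.9, 41.3, 41.2 and 39.2 CPM to 12.9, 13.5, 13.2 and 11.9 CPM, 3.20-fold lower, while Ppard rose from 14.01 ± 1.06 to 56.1 ± 2.04 CPM and Nr3c1, the glucocorticoid receptor gene, by 1.14 on the log2 scale. TGF-beta pathway genes rose for 9 and fell for 8 of 21 (median 0.042, and -0.34 with library totals alone). Tgfbr1, a receptor gene of the pathway, fell from 40.6 ± 1.74 to 16.5 ± 0.43 CPM and its effector gene Smad3 by 0.86, and Furin, a protease gene that matures the ligand, rose from 69.5 ± 1.54 to 725 ± 21.5 CPM.

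Actin cytoskeleton and adhesion genes rose for 28 and fell for 6 of 36, with a median log2 fold of 0.48. With library totals alone 20 rose and 12 fell, with a median of 0.095. Actb, the beta-actin gene, went from 4301, 4418, 4293 and 4259 CPM to 10940, 11160, 10830 and 10960 CPM, and Marcksl1, whose product binds actin and membranes, rose 38.3-fold from 32.8 ± 0.52 to 1257 ± 19.7 CPM. Itga5, a fibronectin receptor gene, rose by 2.11, and Myo1f, a myosin gene of leukocytes, fell from 251 ± 4.30 to 107 ± 1.35 CPM. Apoptosis and p53 target genes rose for 17 and fell for 9 of 28 (median 0.29, and -0.099 with library totals alone). Fas, the death receptor gene, rose 22.9-fold from 3.48 ± 0.32 to 80.2 ± 4.93 CPM and Gdf15, a stress-induced growth factor gene, by 2.57. Sesn1 and Trp53inp1, p53 target genes of stress and autophagy, fell, the first by 1.66 and the second from 10.8 ± 1.30 to 3.56 ± 0.60 CPM, and Bmf, a pro-apoptotic gene, fell by 2.03.

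**Figure D3:**
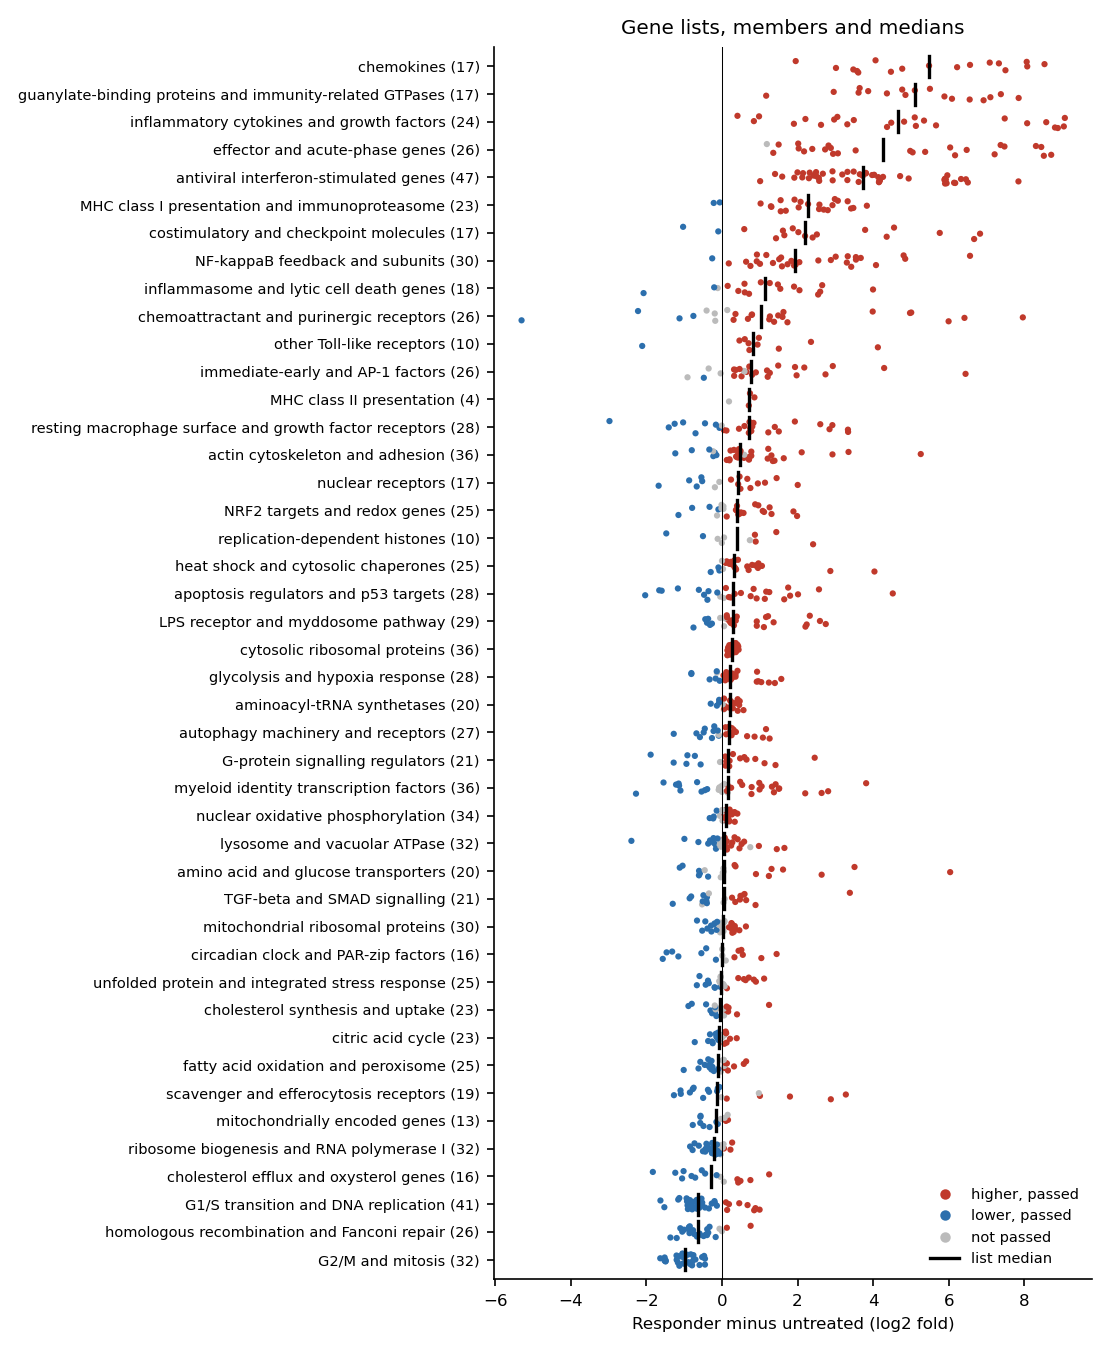
Points are the tested members of the 44 gene lists, with the number tested in brackets, by log2 fold, responder minus untreated (horizontal axis), coloured by direction where the gene passed and grey where it did not, and black bars are list medians. Chemokines (median 5.48) lie at the top and G2/M and mitosis genes (median -0.99) at the bottom, and most lists between them hold members on both sides of 0.

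Motif counts were compared over all promoters, as a description with no test. Of the 12589 genes, 9701 had a RefSeq promoter of 300 bases. The interferon response motif was found in 3.4% of these, in 11.7% of promoters of genes at least 2-fold higher, in 25.2% of those at least 16-fold higher and in 2.6% of those at least 2-fold lower. The shares were 6.4%, 9.0%, 13.5% and 5.0% for kappaB, and 5.0%, 10.1%, 21.9% and 5.8% for the AP-1 motif TGANTCA. The shares of these 3 motifs thus lay highest in the genes that rose the most, while those of the genes that fell stayed near the shares of all genes. This order was not particular to them, since the cell cycle homology motif TTTGAA had shares of 12.3%, 14.1%, 21.9% and 16.4%. CCAAT and the E2F motif TTTNNCGC did not rise, at 36.1% and 3.2% in genes at least 16-fold higher, beside 39.2% and 8.9% of all.

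By list, 4 of 11 chemokine promoters held the kappaB motif (36.4%), 16 of 34 antiviral promoters held the interferon response motif (47.1%), and so did each of the 9 promoters of the GTPase list. Among 27 promoters of mitotic genes 81.5% held CCAAT and 74.1% TTTGAA, beside 39.2% and 12.3% of all. In the 33 promoters of G1/S genes 45.5% held the E2F motif TTTNNCGC, beside 8.9% of all. These motifs overlap in part, since a short pattern can lie within or beside another.

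Promoters also differed in CG pairs. The median number of CG pairs in a promoter was 21 over all genes, 12 for genes at least 2-fold higher, 3 for those at least 16-fold higher and 19 for those at least 2-fold lower. Fewer than 5 CG pairs were counted in 8.8%, 26.2%, 56.8% and 14.9% of these promoters. Il6 held 3 and Cxcl10 held 10, against 31 in Cenpf and 28 in Kif11.

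**Figure D4:**
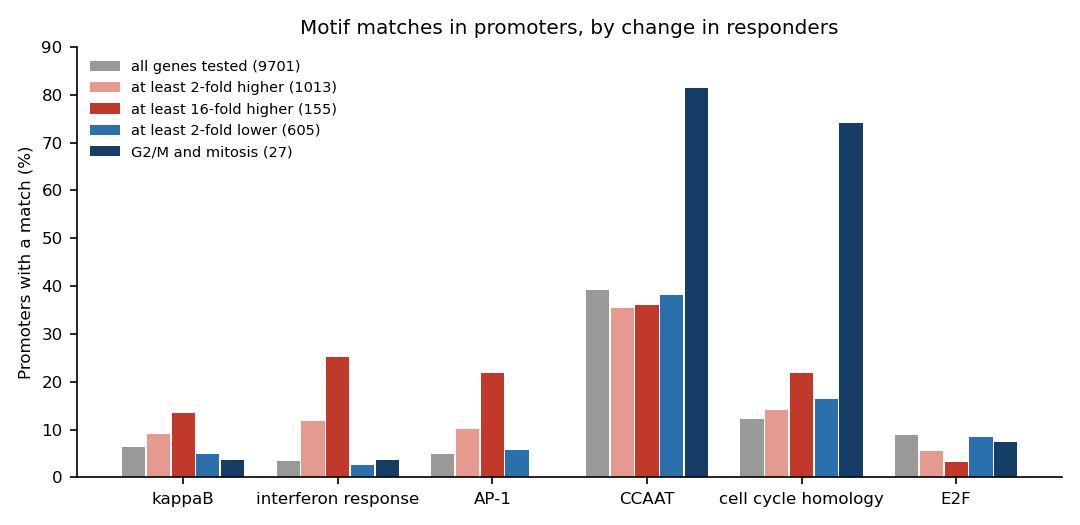
Bars give the share of promoters (%) with at least 1 match to each motif, for all tested genes with a promoter (9701), for genes at least 2-fold higher (1013), at least 16-fold higher (155) or at least 2-fold lower (605) in responders, and for the G2/M and mitosis list (27). The interferon response bar rises from 3.4% to 25.2% in the genes at least 16-fold higher, and the mitotic list has the highest bars for CCAAT (81.5%) and the cell cycle homology motif (74.1%).

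The distance of responders from the ungated LPS pool was small beside their distance from untreated cells. Directly compared in the same fit, responders were higher than the pool for 2010 genes (16%) and lower for 1195 (9.49%), but at least 2-fold for only 9 (0.0715%) and 38 (0.302%). The pool itself contains responders, and these comparisons share the responder libraries with the main one. In the antiviral list, 44 of 47 were higher in responders than in the pool, and in the G2/M list 28 of 32 were lower, so for these genes responders lay farther from untreated cells than the pool did. The antiviral median log2 fold against untreated cells was 3.426 in the pool, 3.725 in responders and 3.482 in bystanders. For that list the pool thus lay below both gates. The G2/M medians were -0.784, -0.988 and -0.303, with the pool between the gates. Cytip, chosen for its low responder values, stood at 5.75 CPM in the pool and 1.42 CPM in responders, and St6gal1, chosen likewise, at 14.7 and 6.46 CPM. Of the cytokine genes, Il6 at 752 and 787 CPM and Il1b at 2825 and 3265 CPM did not pass against the pool, with adjusted p = 0.738 and 0.62. The fit takes its spread from the more variable bystander libraries too, so these misses do not show equal levels. Of the 24 cytokine and growth factor genes tested, 10 were higher in responders than in the pool and 0 lower.

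Against bystanders, 4364 genes (34.7%) were higher and 4449 (35.3%) lower in responders, 733 (5.82%) and 671 (5.33%) at least 2-fold. Some genes moved from the untreated level in opposite directions in the LPS-treated gates, with each of the 3 contrasts past the threshold. Tlr4 stood at 51.9 CPM in untreated cells, 30.7 in responders and 126 CPM in bystanders. The reverse order held for Spi1, at 276, 474 and 241 CPM. Of the 47 interferon-stimulated genes, 25 were higher and 20 lower in responders than in bystanders, and Ifit1 and Rsad2 were lower, at 1396 against 2093 CPM and 5554 against 6089 CPM. Each of the 32 mitotic genes was lower in responders than in bystanders. Cebpa fell in both, to 4.07 CPM in responders and 4.87 in bystanders, which did not differ past the threshold (log2 fold -0.24, adjusted p = 0.062).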

How the data were processed

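RNA was sequenced from 16 libraries, 4 in each of 4 groups, of which the responder and untreated groups are compared here. Per the submitters' processing notes reads passed cutadapt (version 3.7), fastp (1.1.0), HISAT2 (2.2.2) and featureCounts (2.1.1) in some order, with the mouse build GRCm38. Not given in the sources used here were the annotation, strand setting and treatment of reads with several positions, so overlapping, antisense and near-identical genes are uncertain. The deposited values are raw read counts per gene, with no normalization by the authors seen in the file. Of 27179 gene IDs, 25275 matched a RefSeq symbol, and the 1904 unmatched held 0.399% of counts and stayed in the fit.

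Counts were tested with edgeR 4.0.16 in R 4.3.3: a filter by filterByExpr, TMM factors and the robust quasi-likelihood F test, fitted over all 16 libraries with 1 term per group, with Benjamini-Hochberg adjustment over 12589 genes and a threshold of 0.05. Standard errors are the log2 fold divided by the root of F. Totals of 15287344 to 25193162 counts per library limit precision for genes of a few reads. Same-numbered responder and untreated libraries deviated together (r across genes of 0.605, 0.18, 0.169 and 0.175 for numbers 1 to 4). Numbers 2 to 4 also gave 0.057 to 0.167 with one another, so only number 1 stood out. The rule used, every same-numbered r above 0.1, was met, but the labels do not say that a number is shared. The tests reported here took the samples as unpaired, and a replicate block was run as an alternative. The fit was also run on simulated counts in which as many genes rose as fell, so that run does not test the scaling of these data.

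Genes were named by a rule: the 15 highest and 15 lowest folds with at least 5 CPM and no overlap, the 10 largest gains and losses of CPM, up to 4 members each way in each list, and a set of fixed genes. The members and lists were chosen with earlier results of these data known. Alternatives were other scalings, filters, tests (DESeq2 1.42.0), libraries and a replicate block, and, chosen after seeing the data, a fit without the 6 libraries that held neural transcripts. Some genes are not reported here.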

Additional observations from a re-analysis of the deposited data

Results flagged for a closer look

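In 23 of the 414 sets of 4 replicate values examined, 1 library lay far from the other 3, by Dixon's test for a single far value. Chance gives such a gap in about 1 in 20 sets, and none of these gaps brought a responder library near an untreated one.

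Among induced genes, Il1rn stood at 6122 CPM in responder 1 (6229 to 6246 in the others) and at 294.2 CPM in untreated 2 (302.6 to 303.2). Ifi205 stood at 236.5 CPM in responder 1 (276.8 to 282.8) and Nfkbia at 567.6 CPM in responder 2 (550.4 to 552.6). Cxcl3 stood at 5.679 CPM in responder 2 (6.706 to 6.87) and at 0.04499 CPM in untreated 2, where the other untreated libraries had no read. Ifnb1 stood at 0.1029 CPM in untreated 3 with no read in the others, and Ccl17 at 0.05144 CPM in untreated 3 (0.1252 to 0.1359). Msr1 stood at 67.18 CPM in untreated 3 (70.26 to 70.41), Per1 at 25.28 CPM in untreated 1 (27.52 to 27.67) and Fth1 at 12780 CPM in untreated 2 (12560 to 12570).

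Among genes that fell, Kif20b stood at 20.35 CPM in responder 2 (24.73 to 25.62), Brca2 at 10.03 CPM in responder 2 (8.493 to 8.711), Gas6 at 5.086 CPM in responder 2 (4.386 to 4.43) and Exo1 at 16.75 CPM in responder 4 (18.17 to 18.42). In untreated 3, Osgin1 stood at 41.46 CPM (38.92 to 39.32), Ptma at 1808 CPM (1747 to 1753), St6gal1 at 55.91 CPM (53.32 to 53.56) and Tns1 at 6.07 CPM (7.334 to 7.514). In untreated 4, Rrp1b stood at 110.9 CPM (105.4 to 106.3) and P2rx7 at 23.09 CPM (20.88 to 21.24). Gpr183 stood at 49.54 CPM in untreated 2 (46.34 to 46.44) and Slco2b1 at 1.223 CPM in untreated 1 (2.263 to 2.385). Untreated 3 had 7 of the 23 and responder 2 had 5.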

How the results depend on the processing

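The scaling moved the results most. With library totals alone, 2286 genes were higher and 8238 lower, 967 and 1880 of them at least 2-fold. List medians then turned for LPS receptor genes (-0.102), heat shock (-0.053), tRNA synthetases (-0.183), transporters (-0.34), glycolysis (-0.172), oxidative phosphorylation (-0.285), ribosomal proteins (-0.117), myeloid factors (-0.233), G-protein regulators (-0.223), lysosome (-0.339), autophagy (-0.204) and apoptosis (-0.099), from medians near 0 for mitochondrial ribosomal proteins (-0.368), clock (-0.376) and TGF-beta genes (-0.341), as did mt-Co1 (-0.225) and Hmgcs1 (-0.329). The histone median turned without a filter on low counts (-0.204) and at 1 CPM in 4 libraries (-0.003), which test other members. A test against a fold of 1.5 called 1345 genes lower, where 785 passed the main test with a fitted fold of at least 2. These thresholds are unlike, so the counts are not a direct comparison. Without the 6 libraries with neural transcripts the mitochondrial share differed by -0.5189 percentage points, with an exact permutation p = 0.1, the smallest that the remaining 3 and 3 libraries allow. Hmgcs1 passed the threshold with RLE factors (0.075), without untreated replicate 1 (0.092) and without the 6 libraries. Leaving out each of the 8 libraries in turn gave 4499 to 4556 genes higher and 4664 to 4718 lower, 1368 to 1395 and 783 to 812 at least 2-fold, and a mitochondrial difference of -0.5427 to -0.5214. With the replicate block, 4597 genes were higher and 4842 lower, 1357 and 788 at least 2-fold, and no list median or named gene changed its direction or call. Across the alternatives run, 27 of 44 list medians kept their sign, and 203 of 206 named genes kept direction and side of the threshold. Also turned were the cholesterol synthesis median (0.008 and 0.001 without responder replicates 3 and 4), the clock median (-0.015 to -0.004 without 1 of 3 libraries: responder 1, responder 3 or untreated 2) and, without a filter, the TGF-beta median (-0.158). Genes of a few reads, such as Ifnb1, Cxcl3 and Slco2b1, are limited by depth.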

Other observations

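Among gene classes that the lists leave out, long noncoding RNAs were tested for 458 genes, of which 71 were at least 2-fold higher and 46 at least 2-fold lower in responders, beside 10.8% and 6.24% of all genes tested. Of 59 small nucleolar RNA genes tested, 5 were higher and 18 lower at an adjusted p under 0.05 by edgeR, beside 36.5% and 38.5% of all genes tested, with a median log2 fold of -0.309. Most small nucleolar RNA genes lie in introns of other genes, and the part of their host transcripts in these counts was not tested.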
